A study of Mus musculus with 32 samples.

Results

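The cytosolic ribosomal protein genes encode the proteins that assemble with ribosomal RNA into the small and the large subunit of the ribosome. They were taken as every protein-coding gene named Rpl or Rps with a number, plus Rplp0, Rplp1, Rplp2 and Rpsa, without the Rps6k kinases and without pseudogenes, whose mean over the 32 libraries reached 5 CPM (counts scaled to library size). This gave 75 members out of 54232 genes in the table: 41 proteins of the large subunit, 30 of the small subunit, and 4 genes that carry such a name without encoding a standard subunit (Rpl22l1, Rpl7l1, Rps27l and Rps19bp1). Of the 86 genes with a fitting symbol, 11 fell below the minimum. Rps27l at 5.09 CPM and Rps27a at 6.23 CPM lay just inside it, and Rpl21 at 3.67 CPM and Rpl29 at 1.98 CPM just outside.

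The libraries came from photoreceptors, the rod and cone cells that sense light in the eye, which had been laser capture microdissected from snap-frozen eyes of male mice aged 6 weeks on the mixed strain C57BL/6/J x 129 SvEvBrd. Wild-type mice (WT) were compared with mice carrying the genotype Per1-/-Per2Brdm1 (KO), in which both named Period genes of the circadian clock are altered. Eyes were taken at circadian times (CT, hours of the internal day counted from subjective dawn) 19, 22, 1 and 10, with 4 libraries in each of the 8 groups. In the WT group at CT1, the title of replicate 5 names 2 animals, and that of WT CT10 replicate 5 has an R where the other titles have an L.

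Ribosomal protein mRNAs are among the most abundant mRNAs of most cells and are made in balanced amounts, since each ribosome holds 1 copy of nearly every protein. Their mRNAs typically start with a C followed by an unbroken run of C and T (in RNA, C and U), the terminal oligopyrimidine or TOP motif, through which the growth kinase complex mTORC1 and the protein Larp1 control their translation. That control acts on translation of the mRNA, whereas the values here are mRNA counts. Rods renew a part of their outer segment every day and so make large amounts of protein.

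Stretches of 30 bases near the start sites of 7 members are shown, chosen for a high level, for small p-values or for a long run of pyrimidines. RefSeq start-site windows (GRCm38.p6, 250 bases before to 50 after the start) matched 59 of the 75 members, with 70 windows. Within 20 bases before to 50 bases after the start, 41 of the 70 windows (58.6%) held at least 10 consecutive C or T on the transcribed strand, as did 12% of all 32851 windows in the table. On the other strand the share was 2.9% of the member windows and 13.6% of all windows. Capitals mark the longest run of C and T in the 30 bases shown, 5′ to 3′ on the transcribed strand. The stretches of Rps15, Rps7 and Rpl23 begin 15, 13 and 6 bases after the annotated start and do not contain it. The runs of Rps15, Rps7, Rpl23 and Rplp0 begin 25, 22, 18 and 11 bases after the start. These runs are thus not the first bases of the annotated mRNA. The first 4 sequences belong to members that the naming rule picked, Rps15 for its high level and Rplp0, Rpl23 and Rps7 for the smallest p-values between genotypes. Rplp1 and Rpl8, high members picked by the same rule, are named only. Rpl7a, Rpl27a and Rpl35 were chosen after their runs had been seen.
Rps15, chr10:80292446-80292475, plus strand: gcagcccgtaCTTCCTTTTCCgagtaaccg
Rplp0, chr5:115559466-115559495, plus strand: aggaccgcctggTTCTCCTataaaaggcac
Rpl23, chr11:97782404-97782433, minus strand: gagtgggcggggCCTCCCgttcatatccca
Rps7, chr12:28635911-28635940, minus strand: ctgtccccaCCTCTTTTCTTCCgccacccg
Rpl7a, chr2:26910788-26910817, plus strand: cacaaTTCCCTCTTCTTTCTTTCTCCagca
Rpl27a, chr7:109519186-109519215, plus strand: gtgagCTCCTCCCTTTTCCCTTTCTgccac
Rpl35, chr2:39005115-39005144, minus strand: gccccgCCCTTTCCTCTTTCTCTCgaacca

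The runs of Rpl7a, Rpl27a and Rpl35 are 21, 20 and 18 bases long, and Rpl34, which is not shown, has one of 20. Rplp0 and Rpl23 hold no run of 10 in the window, with longest runs of 7 and 6 bases. Searched as fixed letters, CTTTCC lay on the transcribed strand of 18 of 70 member windows (25.7%) against 3.2% of all windows, and CTCTTTC lay in 12 of 70 (17.1%) against 0.9%. Both motifs overlap the pyrimidine run wherever they fall inside it. On the other strand each was found in 1.4% of member windows, against 3.3% and 1.0% of all windows. A match describes the letters near the annotated start and does not place the start that these photoreceptors use.

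Library totals ran from 23833604 to 34582742 counts, and the lowest count of any member in any library was 73. All 75 members passed the filter on low counts and entered the tests. Rod markers summed to between 95410 and 170400 CPM per library and cone markers to between 2050 and 3808 CPM, so the defining photoreceptor genes were present in every library. The altered genes separated the genotypes completely: the WT libraries held 94.3 to 145 CPM of Per1 and the KO libraries 169.8 to 323 CPM, and Per2 stood at 15.2 to 44.2 CPM in WT against 167.7 to 266.8 CPM in KO. Both were higher in KO, and whole-gene counts do not show whether the altered part of either gene is transcribed, so they check no loss. Identical libraries numbered 0, and any pair from 1 group differed beyond counting error, with a chi-square of 12.1 to 108 per degree of freedom.

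Levels differed widely between ribosomal protein mRNAs that serve 1 complex. Per kilobase of annotated exon, the mean level over all libraries ran from 3.16 to 257.4 CPM with a median of 16.84 CPM, a ratio of 81.5 between the highest and the lowest. Rplp1, an acidic protein of the lateral stalk that recruits elongation factors, was highest at 257.4 CPM per kilobase. Rps15 of the small subunit followed at 198.7, Rpl8 of the large subunit at 183.7, and Rpl4, which helps line the tunnel through which the new chain leaves, at 178.2 CPM per kilobase. The 4 members with the most counts (Rpl4, Rpl8, Rps3 and Rpl7) held 24.6% of all member counts. The lowest level per kilobase was that of Rps27a, which is made as a fusion with ubiquitin, at 3.16 CPM. Rps19, the gene most often altered in Diamond-Blackfan anaemia, stood at 4.36 CPM per kilobase, Rpl15 at 5.37, Rpl22l1 at 5.39 and Rps27l at 6.23. Medians of the large subunit (17.71 CPM per kilobase) and the small subunit (17.88) were close to each other.

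The length used moves these levels. Per kilobase of the principal transcript alone, the range was 6.91 to 293.4 CPM with a median of 37.66, and Rps19 stood at 26.4 CPM per kilobase in place of 4.36. Rps27a was then at 7.88, second from the lowest, and Rplp1, Rps15, Rpl8 and Rpl4 remained the 4 highest. Ribosomal protein genes have many near-identical copies in the genome, so reads can be lost or shared between copies. In the members' principal transcripts a median of 50.63% of all 50-base words occurred in no other annotated gene, from 1.35% in Rps27 to 100% at the highest. Across the 75 genes this share was set against the level per kilobase of the principal transcript. Its Pearson correlation with the log2 of that level was 0.089 and its Spearman correlation 0.069. Members with under 50% of such words had a median of 36.63 CPM per kilobase, and the others one of 45.3. Genes below the 5 CPM minimum were left out, so these values cannot show how many reads were lost to copies. Rows named as ribosomal protein pseudogenes or non-coding copies numbered 296, of which 235 had counts, and they summed to 218.9 CPM against 3913 CPM for the members. Exons of 16 members overlap a gene on the other strand and those of 2 a gene on the same strand. The strand setting of the counting is not given in the sources used here, so such values are less certain.

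The share of counts that went to the 75 members differed widely between the libraries of some groups and little in others. The group means ran from 0.355% in KO CT1 to 0.459% in WT CT1. Over single libraries the share ran from 0.271% in KO CT22 replicate 4 to 0.662% in WT CT19 replicate 4, a ratio of 2.44, with a median of 0.379%. The mean was 0.413% ± 0.104 (SD, n = 16) in WT and 0.370% ± 0.039 (SD, n = 16) in KO. Only 3 libraries, all WT, stood above the highest KO library at 0.434%: WT CT19 replicate 4, WT CT1 replicate 5 at 0.606% and WT CT1 replicate 1 at 0.546%. Within WT CT19 alone the share spanned 0.278% to 0.662%, and within KO CT10 it spanned 0.359% to 0.402%.

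**Figure D1:**
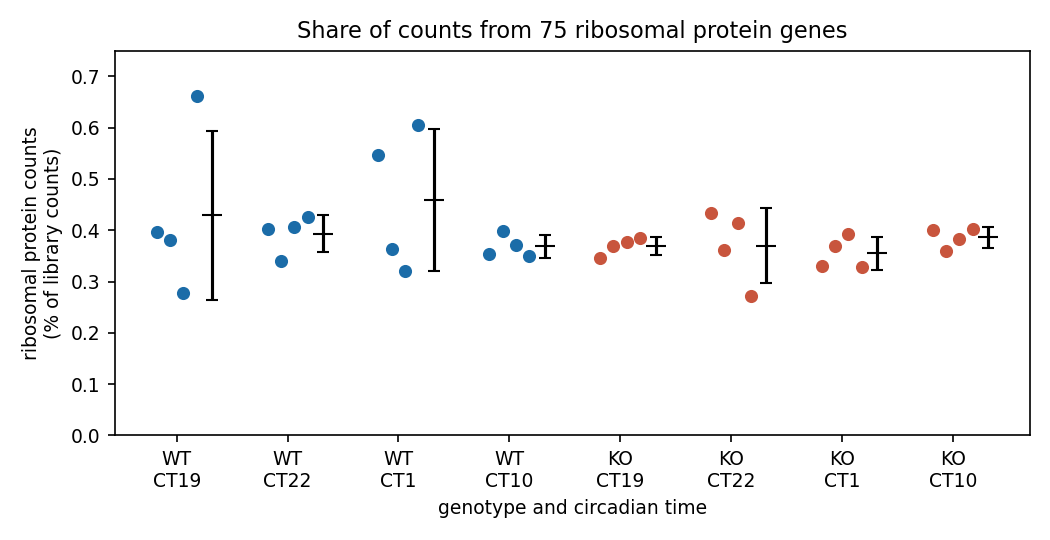
Share of each library's counts, in percent, that fell on the 75 ribosomal protein genes (y axis) by genotype and circadian time (x axis); each point is 1 library, the horizontal bar the group mean and the vertical bar ± 1 SD (n = 4). The 3 highest points, between 0.546% and 0.662%, are WT libraries at CT19 and CT1, and the lowest point is a KO library at CT22.

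Most members moved up and down together from library to library. On log2 CPM with each group's mean removed, the median Pearson correlation over 2775 pairs of members and 32 libraries was 0.795 (Spearman 0.719), with a range of -0.19 to 0.981. It was 0.733 without WT CT19 replicates 4 and 3, the libraries farthest from the median. The same median was 0.144 over pairs of 756 other genes with transcripts under 1000 bases and 0.075 over pairs of 4528 genes with transcripts over 4000 bases. Those genes had only to pass the filter on low counts, with no minimum of 5 CPM. The sets were thus not matched for level, and the part of level in the difference was not tested. Depth and library are shared by all of these pairs, so the values describe the libraries and not separate measurements. In all, 45 members correlated at 0.9 or more with the median of the others.

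A few members went their own way. The 5 with a correlation under 0.5 were Rpl30 (0.17), Rpl10a (0.22), Rps29 (0.37), Rps27a (0.42) and Rps2 (0.46). Rps29, a small zinc-binding protein of the small subunit, had the largest spread within groups, with a residual SD of 0.96 log2 units against a median of 0.32 over the members. Its levels in WT were 12.7, 27.8, 40.3 and 58.9 CPM at CT19, 13.8, 15.5, 55.2 and 57.8 CPM at CT22, 11.9, 26.1, 42.9 and 58.7 CPM at CT1, and 14.5, 19.7, 28 and 45.6 CPM at CT10. In KO they were 9.10, 12.1, 13.9 and 39.0 CPM at CT19, 7.87, 17.8, 53.8 and 53.9 CPM at CT22, 22.7, 29.3, 45.2 and 45.2 CPM at CT1, and 10.3, 31.5, 34.8 and 38.1 CPM at CT10. High and low libraries thus occurred side by side in nearly every group, and WT and KO overlapped at every time.

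Rps2, which lies at the entry of the mRNA channel, had the next largest spread with a residual SD of 0.76. Its lowest, median and highest values were 6.84, 14.1 and 31.8 CPM in WT and 4.15, 15.1 and 24.6 CPM in KO. Some libraries were high in both genes, such as KO CT22 replicate 1 with 53.9 CPM of Rps29 and 24.6 CPM of Rps2. KO CT22 replicate 3 was high in Rps29 alone, with 53.8 CPM of Rps29 and 5.19 CPM of Rps2. Rpl35, near the exit of the nascent chain, had a residual SD of 0.47, and Rpl30, a small protein of the large subunit, one of 0.45. In the principal transcripts, 64.2% of the 50-base words of Rps29, 28.7% of those of Rps2 and 20.8% of those of Rpl30 occurred in no other gene, and the part of shared sequence in their spread was not tested. The steadiest members were Rpl7l1 (0.15), Rpl22 (0.16), Rpl5, which carries the 5S RNA into the ribosome with Rpl11 (0.19), and Rpl4 (0.20).

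**Figure D2:**
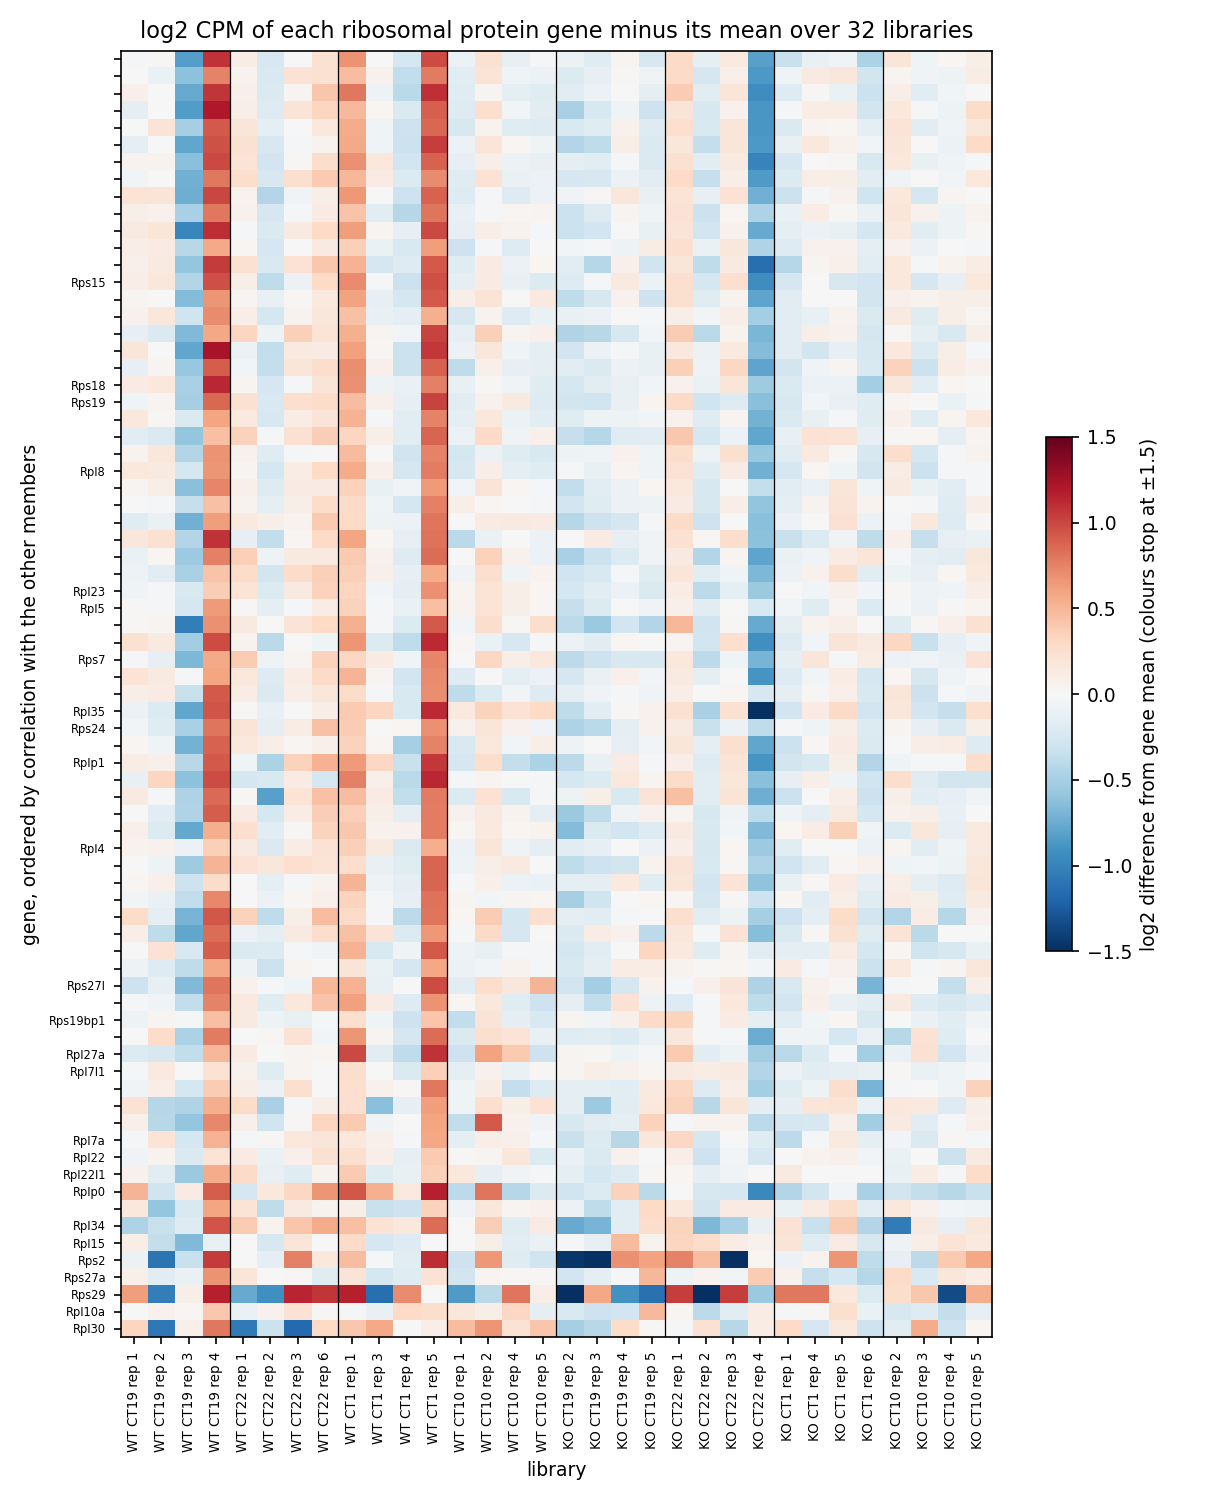
Colour gives the log2 CPM of each ribosomal protein gene (rows, ordered by correlation with the others within groups) minus its mean over the 32 libraries (columns, grouped by genotype and time). Labels mark a selection of the genes described in the text. Columns of 1 colour, such as red WT CT19 replicate 4 and blue KO CT22 replicate 4, show the members moving together, and Rps2 and Rps29 near the bottom follow the others less closely.

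The 3 libraries with the largest member shares were also among the 4 richest in other short mRNAs. The short-mRNA level was taken as the mean log2 CPM of the 756 short genes minus that of the 4528 long genes, centred over the libraries, with no member among them. It was 0.07 ± 0.21 (SD, n = 16) in WT and -0.07 ± 0.12 (SD, n = 16) in KO. WT CT1 replicate 5 ranked 1 of the 32 libraries in this level at 0.64, WT CT19 replicate 4 ranked 2 at 0.39, and WT CT1 replicate 1 ranked 4 at 0.20. KO CT19 replicate 5 ranked 3 at 0.22 with a member share of 0.385%, close to the middle of the libraries. The libraries next in member share did not stand out in short mRNAs. KO CT22 replicate 1 (share 0.434%) had a level of -0.045, WT CT22 replicate 6 (0.425%) one of -0.015 and KO CT22 replicate 3 (0.414%) one of 0.063. Without the 3 libraries highest in this level the median correlation between members was 0.70. In bulk samples such as these, fewer cells of a type and less of an RNA per cell cannot be told apart.

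**Figure D3:**
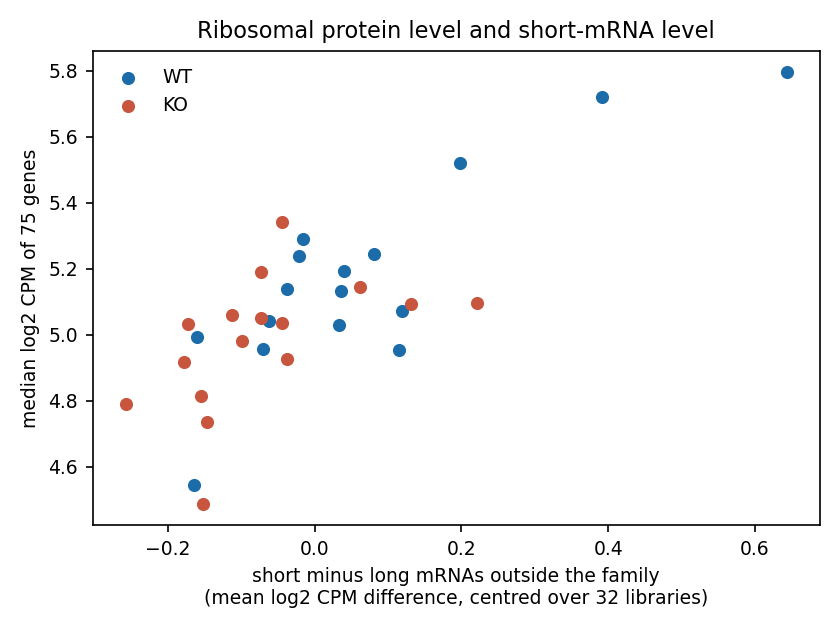
Median log2 CPM of the 75 ribosomal protein genes (y axis) against the level of short minus long mRNAs outside the family (x axis, log2, centred), 1 point per library, WT in blue and KO in red. The 3 points highest on the y axis are WT libraries with short-mRNA levels of 0.20, 0.39 and 0.64, and the WT and KO points overlap elsewhere.

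KO and WT were compared to ask whether mRNA levels in photoreceptors differ when the Period genes are altered, first over the mean of the 4 times. Of the 75 ribosomal protein genes, 4 fell in KO at an adjusted p under 0.05 (edgeR quasi-likelihood test, Benjamini-Hochberg adjustment over all 17871 tested genes) and 0 rose. This is 5.33% of the members, and 6.4% of all tested genes were called lower and 16.3% called in either direction, so the share of members called was near the background. The 4 genes were Rplp0, Rpl23, Rps7 and Rps24. The fitted log2 fold change (KO minus WT) lay below 0 for 74 of the 75 members and for 50.8% of all tested genes, and its median was -0.22 over the members and -0.00305 over all. An unadjusted p under 0.05 was reached by 36 members and by 29.1% of all genes. Since the members move together between libraries, these counts do not come from 75 separate measurements.

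Rplp0 encodes the base of the lateral stalk, to which the Rplp1 and Rplp2 proteins bind, and lies on chromosome 5 from 115559467 to 115563727 (GRCm38). In WT it was at 26.5, 35.5, 46.4 and 61.5 CPM at CT19, at 27.4, 36.3, 40.4 and 51.7 CPM at CT22, at 36.1, 47.3, 62.1 and 73.2 CPM at CT1, and at 24.2, 24.9, 28.3 and 57.2 CPM at CT10. In KO it was at 24.6, 26.6, 28.4 and 41.5 CPM at CT19, at 16.6, 27.1, 27.6 and 32.5 CPM at CT22, at 23.3, 24, 27 and 31.8 CPM at CT1, and at 24.4, 25.5, 25.8 and 26.9 CPM at CT10. The genotypes overlapped at CT19, CT22 and CT10, and at CT1 every WT library was above every KO library. Over the 4 times Rplp0 fell to 0.648 of the WT level, a log2 change of -0.63 (SE 0.14, adjusted p = 0.00256). At CT1 the log2 difference was -1.04 (SE 0.28, adjusted p = 0.053). The call over the 4 times held in all 32 fits that left out 1 library, with values from -0.67 to -0.53.

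Rpl23, a large subunit protein that can also bind Mdm2, lies on chromosome 11 from 97777527 to 97782437. Its lowest, median and highest values were 43.0, 53.0 and 81.6 CPM in WT and 34.3, 48.2 and 54.6 CPM in KO (n = 16 each), and the genotypes overlapped over most of this range. Its log2 change over the 4 times was -0.23 (SE 0.07, adjusted p = 0.0265). Rps7, which is needed to process the small subunit's RNA, had 53.7, 92.0 and 141.7 CPM as its lowest, median and highest WT values and 52.5, 79.9 and 99.2 CPM as those in KO. The log2 change of Rps7 was -0.28 (SE 0.09, adjusted p = 0.0412). Rps24, another gene altered in Diamond-Blackfan anaemia, had WT values of 53.5, 78.3 and 131.2 CPM and KO values of 54.4, 69.6 and 82.2 CPM in the same order, with a log2 change of -0.28 (SE 0.10, adjusted p = 0.0447). Leaving out 1 library ended the call of Rpl23 in 1 of 32 fits (without WT CT1 replicate 5, log2 change -0.18, adjusted p = 0.0554), that of Rps7 in 18 and that of Rps24 in 20, with all values below 0. In 9 fits with other settings, the call of Rpl23 ended in 4, with log2 changes from -0.23 to -0.0794 over the 9. That of Rps7 ended in 6 of these fits, that of Rps24 in 5 and that of Rplp0 in 1. For these 3 genes the highest WT libraries lay above all KO libraries. The lowest WT and KO values were close to each other for Rps7 and Rps24, while for Rpl23 the KO libraries with 34.3, 38.5 and 42.1 CPM lay below every WT library.

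**Figure D4:**
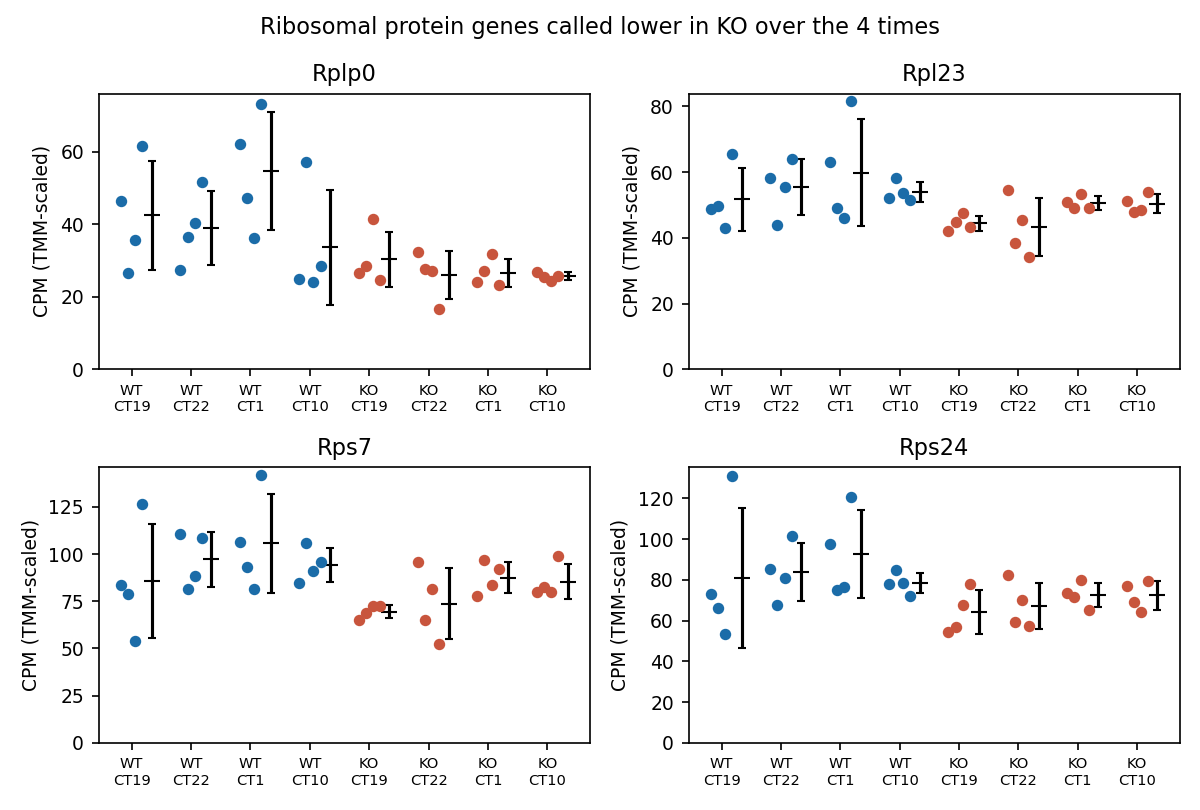
CPM after TMM scaling (y axis, from 0) of Rplp0, Rpl23, Rps7 and Rps24 in each genotype and circadian time (x axis); each point is 1 library, the horizontal bar the group mean and the vertical bar ± 1 SD (n = 4). Rplp0 at CT1 is the panel position where the WT points, from 36.1 CPM up, lie above all KO points, up to 31.8 CPM.

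Among the members not called, Rpl5 was nearest to the threshold at a log2 difference of -0.18 (SE 0.07, adjusted p = 0.0509). Rpl34 had the second lowest fold change at -0.40 (SE 0.15, adjusted p = 0.0718). Rpl4 was at 380.6 ± 58.4 CPM in WT and 336.4 ± 34.9 CPM in KO (SD, n = 16), and Rplp1 at 141.9 ± 51.8 and 115.8 ± 20.8 CPM, neither of them called. Rpl15 was the only member with a fitted value above 0, at 0.17 (SE 0.07, adjusted p = 0.112), from 12.5 ± 1.90 CPM in WT to 14 ± 1.85 CPM in KO (SD, n = 16). Large and small subunit genes had medians of -0.21 and -0.23.

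**Figure D5:**
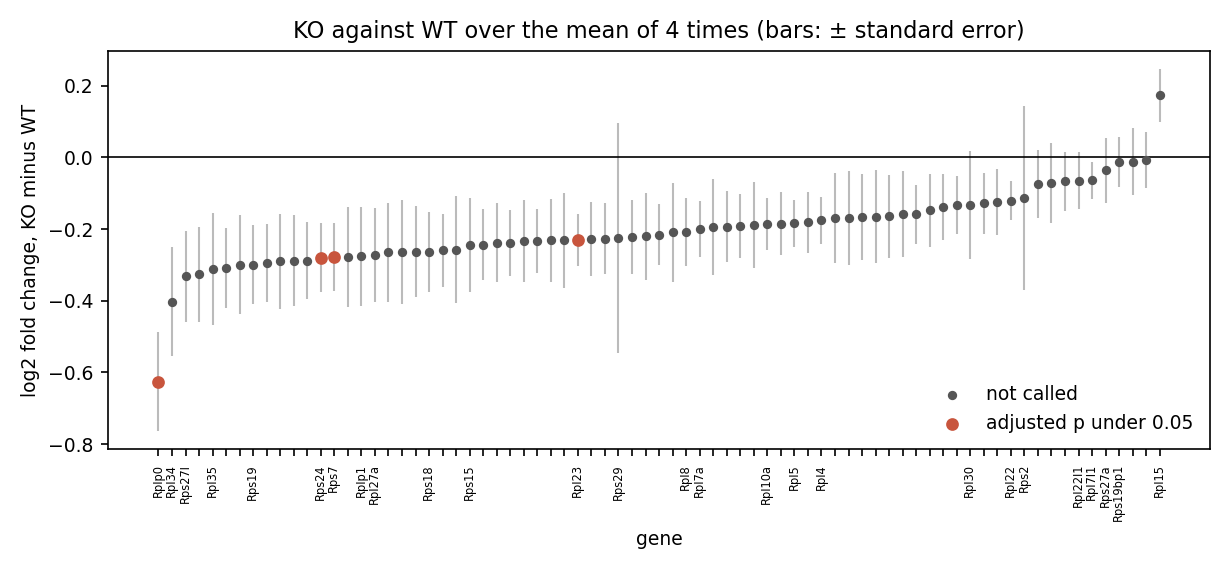
Fitted log2 fold change, KO minus WT over the mean of the 4 times (y axis), of each of the 75 ribosomal protein genes (x axis, in rising order, a selection labelled), with bars of ± 1 standard error. The 4 genes with an adjusted p under 0.05 are marked in red, and all members but Rpl15 lie below 0.

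The number of members called depended on single libraries. It was 21 without WT CT19 replicate 3 (14.7% of all genes called), 15 without KO CT22 replicate 1 (15.9%) and 14 without WT CT1 replicate 4 (14.4%). It was 10 without WT CT22 replicate 2 (16% of all genes), WT CT1 replicate 3 (15.2%) or KO CT19 replicate 5 (18%). It was 1 without WT CT1 replicate 5 (14.8% of all genes), and 2, with 13.5% to 16.2% of all genes called, without WT CT19 replicate 4, WT CT22 replicate 1 or 6, WT CT10 replicate 2 or 4, KO CT19 replicate 2 or 3, KO CT22 replicate 2, KO CT1 replicate 1 or 6, or KO CT10 replicate 2 or 4. DESeq2 called 12 of the 75 members, all lower in KO, and 18.6% of all genes.

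Mean levels of other short mRNAs and of retinal cell type markers differed between the genotypes, and the differences in these mean levels were not tested. The short genes outside the family had a median log2 fold change of -0.05 over the 4 times and -0.18 at CT1, and 7.01% of them were called over the 4 times, against 16.3% of all tested genes. With the short-mRNA level as a covariate, a fit chosen after seeing the data, the median fold change of the members was 0.0124, 34 of 75 lay below 0, and Rplp0 was the only member called (log2 change -0.46, adjusted p = 0.0354), with 11.6% of all genes called. By time, the median in that fit was -0.112 at CT19 (62 of 75 below 0) and -0.0991 at CT22 (57 below 0). It was 0.0578 at CT1 (27 below 0) and 0.198 at CT10 (5 below 0). Of all tested genes, 47.9% to 49% lay below 0 at these times. The mean log2 CPM of the marker genes of bipolar cells, amacrine cells and Muller glia was 3.76 ± 0.49 in WT and 4.22 ± 0.28 in KO (SD, n = 16), and with it as a covariate 0 members and 4.58% of all genes were called, and Rplp0 stood at -0.64 (adjusted p = 0.0583). By time, the WT and KO means of these markers were 3.9 and 4.4 at CT19, 4.2 and 4.3 at CT22, 3.7 and 3.9 at CT1, and 3.2 and 4.2 at CT10. Rod markers had a mean log2 CPM of 12.1 in WT and 11.96 in KO, and cone markers 7.58 and 7.35. Summed over the 14 bipolar markers the level lay between 425 and 799 CPM in WT and between 479.6 and 955 CPM in KO, over the 12 amacrine markers between 88.6 and 182.5 CPM and between 119.9 and 233 CPM, and over the 13 Muller glia markers between 682 and 1478 CPM and between 992 and 1806 CPM. The 18 lens genes together held 76.9 to 15880 CPM in WT libraries and 309 to 8606 CPM in KO libraries. Their mean log2 CPM in WT and KO was 3.6 and 4.4 at CT19, and 4.5 and 4.2 at CT22. It was 7.6 and 5.9 at CT1, and 7.1 and 4.4 at CT10. WT CT1 replicate 5 had the highest lens level of all libraries, 8.92. With the lens level as a covariate 1 member, Rplp0, and 17.6% of all genes were called. No marker of these lists was at 0 over all libraries.

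At single times no member was called between the genotypes. At CT19 the count was 0 of 75, with 5.19% of all genes called, 4 members at an unadjusted p under 0.05 (21.4% of all genes), and a median log2 fold change of -0.28, which was 0.00391 without WT CT19 replicate 4 and -0.425 without WT CT19 replicate 3. At CT22 it was 0 with 1.53% of all genes called, 3 members at an unadjusted p under 0.05 (12% of all genes) and a median of -0.15. Leaving out KO CT22 replicate 4 moved that median to -0.00699, and without KO CT22 replicate 1 or 3 it was -0.268 or -0.225. At CT1 it was 0 with 1.58% of all genes called, 29 members at an unadjusted p under 0.05 (13.5% of all genes) and a median of -0.36, the lowest of the 4 times. That median was -0.178 without WT CT1 replicate 5, and 0.0578 with the short-mRNA level as a covariate. At CT10 it was 0 with 10.2% of all genes called, 1 member at an unadjusted p under 0.05 (24% of all genes) and a median of 0.0068, with 37 members below 0 (50.8% of all genes). The median at CT10 lay between -0.0292 (without WT CT10 replicate 1) and 0.0398 (without WT CT10 replicate 2) when 1 library was left out. DESeq2 called 0 members at CT19, CT22 and CT10 and 2 at CT1, Rpl27a and Rplp0, with 2.99% of all genes called there. WT CT1 replicates 1 and 5, 2 of the 3 libraries with the largest member shares, belong to the WT group at CT1.

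Time of day was tested within each genotype. In WT 0 of 75 members were called for any difference between the 4 times, with 14.6% of all genes called, and 2 members had an unadjusted p under 0.05 (29.4% of all genes). The smallest adjusted p was that of Rpl30 (0.153). Rpl30 in WT was at 9.79, 21.7, 25.8 and 35.7 CPM at CT19, 9.13, 9.87, 16.4 and 25.3 CPM at CT22, 20.6, 22.1, 27.4 and 30.7 CPM at CT1, and 24.1, 27.6, 28.4 and 32.8 CPM at CT10. Libraries of CT22 were lowest on the whole and overlapped with those of every other time. Mean log2 CPM in WT was highest at CT1 for 66 of the 75 members, lowest at CT10 for 37 and lowest at CT19 for 24. The same shares over all genes were not computed. At CT1 the WT replicates 5 and 1 had member shares of 0.606% and 0.546%, and replicates 3 and 4 had 0.363% and 0.321%. Since the members move together, the 66 are not separate measurements. The median range between the highest and the lowest time was 0.33 log2 units.

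In KO 0 of 75 members were called between the times, with 0.0056% of all genes called, and 0 had an unadjusted p under 0.05 (10.4% of all genes). Mean log2 CPM in KO was highest at CT10 for 39 members and lowest at CT19 for 31, and the median range was 0.20 log2 units. As in WT, the shares over all genes were not computed, and members that move together are not separate measurements. The test of whether the genotype difference varied with time called 0 of 75 members, with 1.62% of all genes called and 0 members at an unadjusted p under 0.05 (16.5% of all genes), and its smallest adjusted p was 0.415 for Rps18. DESeq2 also called 0 members in each of these 3 tests. No single member was thus called for a genotype difference that varied with time. Whether the order of the times over the members differed between WT and KO was not tested.

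The 4 genes outside the standard subunits behaved in different ways. Rpl22l1, the paralog of Rpl22, was at 11 ± 2.16 CPM in WT and 10.5 ± 0.989 CPM in KO (SD, n = 16), far below Rpl22 at 107.2 ± 12.6 and 98.5 ± 9.69 CPM. Per kilobase of exon the levels were 5.39 CPM for Rpl22l1 and 35.3 CPM for Rpl22. Rps27l, a paralog of Rps27 known as a target of p53, was at 5.69 ± 1.78 CPM in WT and 4.51 ± 0.778 CPM in KO, a log2 difference of -0.33 (SE 0.13, adjusted p = 0.0728). Rpl7l1, a relative of Rpl7, was at 37.9 ± 4.22 CPM in WT and 36.2 ± 3.45 CPM in KO and varied least of all members. Rps19bp1, a nuclear protein that binds Rps19 and is no part of the ribosome, was at 13.7 ± 2.32 CPM in WT and 13.6 ± 1.53 CPM in KO. None of the 4 was called in the edgeR tests described above, while Rps27l was among the members that DESeq2 and the fit with the animal number as a block called lower in KO over the 4 times.

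Genes that work with the ribosomal proteins were read from lists chosen with earlier results of these data known. The counts of each list over the 4 times stand beside 6.4% of all tested genes called lower in KO and 16.3% called either way, and nothing is drawn from them about the lists. Fau and Rack1, which are also parts of the ribosome, were not called over the 4 times, with log2 differences of -0.25 (SE 0.12, adjusted p = 0.178) and -0.24 (SE 0.10, adjusted p = 0.0837). Of 7 elongation factors, 2 fell in KO and 1 rose. Eef1d, a subunit of the exchange factor for Eef1a, fell from 59.9 ± 4.73 to 54.1 ± 3.77 CPM (log2 change -0.15, SE 0.04, adjusted p = 0.00744). Eef1a2, the form of Eef1a typical of neurons and muscle, rose from 30.8 ± 10.9 to 39.4 ± 11.9 CPM (log2 change 0.39, SE 0.12, adjusted p = 0.0191), and at CT10 its change was 1.08 (SE 0.23, adjusted p = 0.00325). Eef2, which moves the ribosome along the mRNA, was the second to fall, by 0.20 on the log2 scale (SE 0.06, adjusted p = 0.0253). Elongation factors had a median correlation of 0.80 with the median of the members, within groups over the 32 libraries.

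Of 14 other mRNAs known to carry a TOP motif, 4 fell and 0 rose. Eif3f, a subunit of the initiation factor eIF3, fell by 0.20 on the log2 scale (SE 0.06, adjusted p = 0.0243), and the histone chaperone Nap1l1 by 0.13 (SE 0.04, adjusted p = 0.0284). Eif4b and Eif3e fell too, and the list's median log2 fold change was -0.13. Its median correlation with the members was 0.55. Of 25 genes of mTORC1 and TOP control, 1 fell and 1 rose, and their median correlation with the members was 0.08. Rps6kb1, the S6 kinase, fell by 0.14 (SE 0.04, adjusted p = 0.009). Pdcd4, an inhibitor of translation that S6 kinase marks for degradation, rose by 0.15 (SE 0.04, adjusted p = 0.00895). Pdcd4 was higher in KO at CT19 by 0.44 and lower at CT10, with a change of -0.39, and its genotype difference varied with time (adjusted p = 0.000275).

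Ribosome biogenesis genes did not follow the members. Of 44, 2 fell and 1 rose over the 4 times, and their median correlation with the members was -0.08. Rrp9, which binds the U3 small nucleolar RNA, rose from 27 ± 2.39 to 36.9 ± 5.20 CPM (log2 change 0.45, SE 0.06, adjusted p = 7.34e-07). Rrp12, a factor in subunit export, fell by 0.34 (SE 0.09, adjusted p = 0.011). Within WT, 11 of the 44 differed between times (14.6% of all genes called), among them Ubtf, a transcription factor of ribosomal RNA genes (adjusted p = 0.000563), and Ltv1, a small subunit assembly factor (adjusted p = 0.00106). Of 77 tested proteins of the mitochondrial ribosome, a separate particle, 4 fell and 0 rose, with a median log2 fold change of -0.05 and a median correlation of 0.69 with the members. Mrpl55 fell from 12.8 ± 2.71 to 8.43 ± 1.04 CPM (log2 change -0.59, SE 0.07, adjusted p = 5.95e-08) and Mrpl49 from 112.4 ± 16.1 to 86.4 ± 9.25 CPM (log2 change -0.38, SE 0.06, adjusted p = 1.06e-05).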

How the data were processed

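The authors deposited 1 table of raw read counts per Ensembl gene for 32 libraries. The submitters' processing notes list HISAT2 2.1.0 and HTSeq 0.11, with Trimmomatic 0.32, Cufflinks and build GRCm38.p6. Neither the strand setting nor the handling of multi-mapped reads is stated in the sources used here. Symbols, exons and positions came from GENCODE for GRCm38 (99.876% of identifiers matched). Counts were fitted in R 4.3.3 with edgeR 4.0.16 (filterByExpr with minimum count 10 and minimum total 15, TMM scaling, 8 group means, robust quasi-likelihood tests), and p-values were adjusted by Benjamini-Hochberg over all 17871 tested genes. The script was tested on simulated data. DESeq2 1.42.0 was an alternative. CPM values per library, per group and per genotype are TMM-scaled. The means over all libraries used library totals alone. These are the values behind the 5 CPM minimum, the levels per kilobase, the share of the 4 members with the most counts, the pseudogene sums and the genes below the minimum. Nothing but animal numbers in the titles says that libraries are separate animals, so p-values measure the spread between these libraries. Named genes were the called members, the 5 highest and 5 lowest per kilobase, the 4 steadiest and 4 most variable, the 4 non-standard members, and from each list the called genes with the 2 smallest p-values; Rpl34, Rpl10a, Rps18, Rpl27a, Eef2, Eif4b, Eif3e and members named for their place near a limit were chosen after their values were seen. The members and lists were chosen with earlier results of these data known. Protein sequences were not used here, and 2 results are not reported here.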

Additional observations from a re-analysis of the deposited data

Results flagged for a closer look

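In 13 values tested in each of the 8 groups of 4 libraries (104 checks), 5 had 1 library whose gap to the nearest other exceeded Dixon's critical value as a share of the group's range, which chance gives in about 1 of 20 groups. Rplp0 was at 57.2 CPM in WT CT10 replicate 2 against 24.2 to 28.3 CPM in the other WT libraries of that time. The same library held 23.1 CPM of Rps2 against 11.8 to 12.9 CPM. Rps29 was at 39.0 CPM in KO CT19 replicate 3 against 9.10 to 13.9 CPM. Rpl7l1 was at 27.1 CPM in KO CT22 replicate 4, the library with the lowest member share of all 32, against 39.7 to 40.5 CPM. Rps7 was at 99.2 CPM in KO CT10 replicate 5 against 79.8 to 82.7 CPM. The causes were not tested.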

How the results depend on the processing

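The number of members called over the mean of the 4 times was 4. It was 12 with DESeq2 (18.6% of all genes called), 2 with no filter on low counts (6.41%), 0 with the inner retina level (4.58%) and 1 with the lens level as a covariate (17.6%), and 1 with the short-mRNA level as a covariate (11.6%), a fit added after seeing the data. It was 5 with relative log expression in place of TMM scaling (16.3%) and 4 with the order of library numbers as a block (16%). Without the 3 libraries highest in short mRNAs, also added after seeing the data, it was 3 (17.6%). With the animal number as a replicate block it was 9 (17.2%), but these numbers did not pair the libraries (deviations of 77 same-numbered pairs correlated at a median of -0.031, from -0.37 to 0.668, against 0 for other pairs). Leaving out 1 library gave 1 to 21. At CT1, where 0 were called, DESeq2 called 2 (2.99% of all genes), the fit with the order of library numbers as a block called 1 (1.63%), leaving out 1 library gave 0 to 2, and the median log2 fold change was 0.0578 with the short-mRNA level as a covariate. At CT10 1 member, Rpl10a, was called without the 3 libraries highest in short mRNAs (added after seeing the data, 11.5% of all genes), and 0 to 1 when 1 library was left out. For time within WT the fit with the short-mRNA level called 4 (Rpl12, Rpl14, Rpl36a and Rps28, with 15.4% of all genes) and leaving out 1 library gave 0 to 1. At CT19 and CT22, for time within KO and for the interaction, each fit with 1 library left out called 0. Medians of the log2 fold change with 1 library left out ran from -0.25 to -0.15 over the 4 times, -0.42 to 0.00391 at CT19, -0.27 to -0.00699 at CT22, -0.50 to -0.18 at CT1 and -0.03 to 0.04 at CT10. Over the 4 times the median with the short-mRNA covariate was 0.0124, on the other side of 0. With that covariate it stayed below 0 at CT19 (-0.112) and CT22 (-0.0991) and was 0.198 at CT10. The causes of these shifts were not tested. With a minimum of 1 or 20 CPM the members would number 79 or 56.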

Other observations

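The 11 genes below the minimum of 5 CPM hold retrocopies, tissue-specific paralogs and standard subunits. Rpl10l, a retrocopy known from testis, had a count of 0 in all 32 libraries, which allows up to 3 counts. Rpl39l was at 0.0194 CPM and Rpl3l, known from muscle, at 0.0892 CPM. Standard subunits are encoded by Rpl17, Rpl21, Rpl23a, Rpl24, Rpl29 and Rps23, which with Rpl36al make up the 7 that entered the tests, and 0 of these were called over the 4 times. Rpl29 had a log2 difference of -0.96 (SE 0.43, adjusted p = 0.137, edgeR) between KO and WT, and Rpl23a one of -0.34 (SE 0.14, adjusted p = 0.0829). In the principal transcripts of the 11 genes a median of 36.69% of the 50-base words occurred in no other annotated gene, against 50.63% in the members.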
